A study of Homo sapiens with 6 samples.

Results

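The kinesin motor genes were taken as every row of the deposited gene table whose symbol is KIF, a number and at most 1 letter from A to C. This rule found 35 of 33542 genes: 12 whose products work mainly on the mitotic spindle or midbody, 13 that carry cargo, and 10 with other or mixed roles. KIF2B, KIF19, KIF25 and KIF26A are not analysed here. The libraries came from T24, an established line of human bladder cancer cells, transfected by lipofection with a non-targeting small interfering RNA (siNC, 3 libraries) or with one directed at TRAIP (siTRAIP, 3 libraries). All 6 libraries were therefore from transfected cells of 1 line, and the labels do not name the time after transfection. The sample descriptions spell the knockdown siTR2, and what the number stands for is not stated. TRAIP encodes a ubiquitin ligase of replicating and dividing cells, and the stated purpose of the series was to look for what lies downstream of it in bladder cancer.

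Kinesins are motor proteins that hydrolyse ATP to move along microtubules or to shorten them. Mitotic kinesins slide spindle microtubules apart, move chromosomes and build the midzone on which cytokinesis depends, and most of their genes are transcribed late in the cell cycle. Transport kinesins carry vesicles, mitochondria and ciliary components through interphase cells, and their genes are generally expressed whatever the cycle phase.

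The knockdown was visible in the libraries. TRAIP stood at 26.6, 28.3 and 28.4 CPM (counts scaled to a common library size with TMM factors) in siNC replicates 1 to 3, and at 12.5, 14.7 and 11.6 CPM in siTRAIP replicates 1 to 3. Its log2 fold change, siTRAIP minus siNC, was -1.11 (edgeR, SE 0.07, adjusted p = 6.74e-10). Total gene counts per library ran from 39111793 to 70439496. Replicates were compared by the chi-square of their counts per degree of freedom, which was 3.35 to 8.03 except for 17.6 and 18.3 in the pairs that involved siTRAIP replicate 3. That library therefore stands apart from its group. Of the epithelial and urothelial markers, the keratin genes KRT7, KRT8 and KRT18 were high in every library. KRT18, the lowest of them, stood at 490 to 536 CPM. The urothelial genes UPK1A, UPK3A and GATA3 and the basal keratin gene KRT5 were each under 1 CPM throughout. In the same list PPARG stood at 17.48 to 20.25 CPM and KRT19 at 18.8 to 23.25 CPM. EPCAM was at 1.081 to 2.088 CPM and UPK2 at 0.4477 to 1.055 CPM. Summed CPM of 3 leukocyte markers was 34.2 to 36.0 in siNC and 38.8 to 46.1 in siTRAIP, nearly all of it CD68, with PTPRC and CD14 at or near 0. Summed fibroblast markers were 1.19 to 1.34 CPM in siNC and 1.03 to 4.92 CPM in siTRAIP, the highest value being siTRAIP replicate 3. Of the marker genes named, KRT7 fell (log2 fold change -0.18, edgeR adjusted p = 0.00375) and CD68, which shares 81.7% of its exonic bases with same-strand genes, rose (0.31, adjusted p = 0.000917). Of the 4 neuronal markers SYP rose by 0.87 from a level of 0.975 to 1.34 CPM in siNC (edgeR adjusted p = 0.00127). SNAP25 had a log2 fold change of -0.41 and MAP2 of 0.01, neither called (edgeR adjusted p = 0.147 and 0.986). RBFOX3 was near 0, and the summed list was 6.21 to 6.68 CPM in siNC and 6.46 to 7.22 CPM in siTRAIP. The part of these cell type markers in the kinesin results was not tested.

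Kinesin levels differed widely between genes and little between libraries. On the deposited RPKM scale, which divides by gene length and so allows genes to be compared, the most abundant kinesin was KIF5B, the heavy chain of conventional kinesin, at a mean of 161 over the 6 libraries. KIF11, which slides antiparallel spindle microtubules apart, followed at 141, and every KIF5B library (156 to 165) lay above every KIF11 library (136 to 146). KIF20B, a midzone and cytokinesis motor, came after them at 98.0 RPKM, and then KIF1C, a vesicle carrier, at 55.3 RPKM. KIF4A (47.9 RPKM), KIF2C (47.1 RPKM) and KIF20A (43.9 RPKM) came next, with library ranges that overlapped one another. KIF15 and KIF23 also had overlapping ranges, at 32.9 and 32.5 RPKM.

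At the other end, KIF1A, which carries synaptic vesicle precursors in neurons, had 0 to 4 counts per library, KIF12 had 0 to 5 and KIF6 had 6 to 14. These 3 genes were not tested, and no fold is given for them. The counts of 0 for KIF1A in siTRAIP replicates 2 and 3 allow up to 0.0659 and 0.0435 CPM, from 3 counts and for counting error only. Among the transport motors, KIF5B made up 98.1% to 98.3% of the summed RPKM of KIF5A, KIF5B and KIF5C in every library. The mitotic kinesins together held 59.9% to 60.9% of all kinesin RPKM in the 6 libraries, the transport kinesins 33.6% to 34.8% and the others 5.22% to 5.58%. The balance between the classes thus moved by about 1 percentage point across the series.

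**Figure D1:**
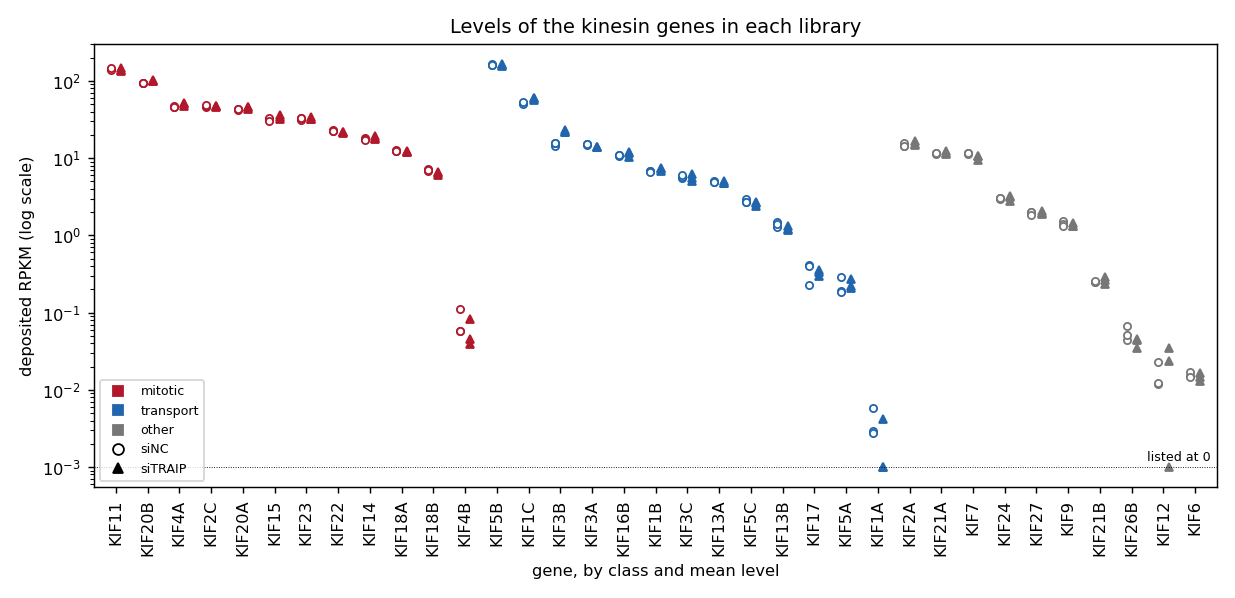
Deposited RPKM (log axis) of the 35 kinesin genes in each of the 6 libraries, with siNC as open circles and siTRAIP as filled triangles. Colour gives the class, and genes run from high to low within each class. KIF5B at 161 and KIF11 at 141 top their classes, and points of KIF1A and KIF12 on the dotted line are libraries listed at 0.

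In siTRAIP cells 7 kinesin genes rose and none fell, by small amounts except for KIF3B. The mitotic genes KIF4A, KIF15, KIF20A and KIF20B rose by 0.14 to 0.16 on the log2 scale, and the transport genes KIF1B, KIF1C and KIF3B by 0.15, 0.26 and 0.60. No gene with other roles was called in either direction. The test was edgeR's quasi-likelihood F-test at an adjusted p of 0.05 over 18685 genes, of which 12.8% were called, 7.47% having risen and 5.34% fallen. Of the 32 kinesins tested, 21.9% were called. An unadjusted p under 0.05 was reached by 10 positive changes and 1 negative one (KIF7), 34.4% of the kinesins beside 24.8% of all genes, and DESeq2 also called 7 rises and 0 falls. Among genes with a mean of at least 1 CPM the shares called were 23.3% of 30 kinesins and 16.3% of all genes. An unadjusted p under 0.05 was reached there by 36.7% and 30.1%. Whether the kinesins as a group differ from other genes was not tested.

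The result depends on whether libraries are scaled by estimated factors or by totals alone. With RLE or upper-quartile factors in place of TMM the same 7 kinesins rose. Over all genes 1396 rose and 997 fell with TMM factors, against 838 and 2050 when library totals alone were used, a choice that shifted the median over all genes to -0.06. With totals alone, 2 kinesins rose (KIF1C and KIF3B) and 1 fell (KIF7), and with limma on log2(RPKM + 0.1) 2 rose and none fell. The number that rose was also 2 when siNC replicate 1, siNC replicate 3 or siTRAIP replicate 1 was left out, the same KIF1C and KIF3B each time. The labels do not say that replicates came from separate cultures, so the p-values speak only for the spread among these 6 libraries, which may be technical.

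**Figure D2:**
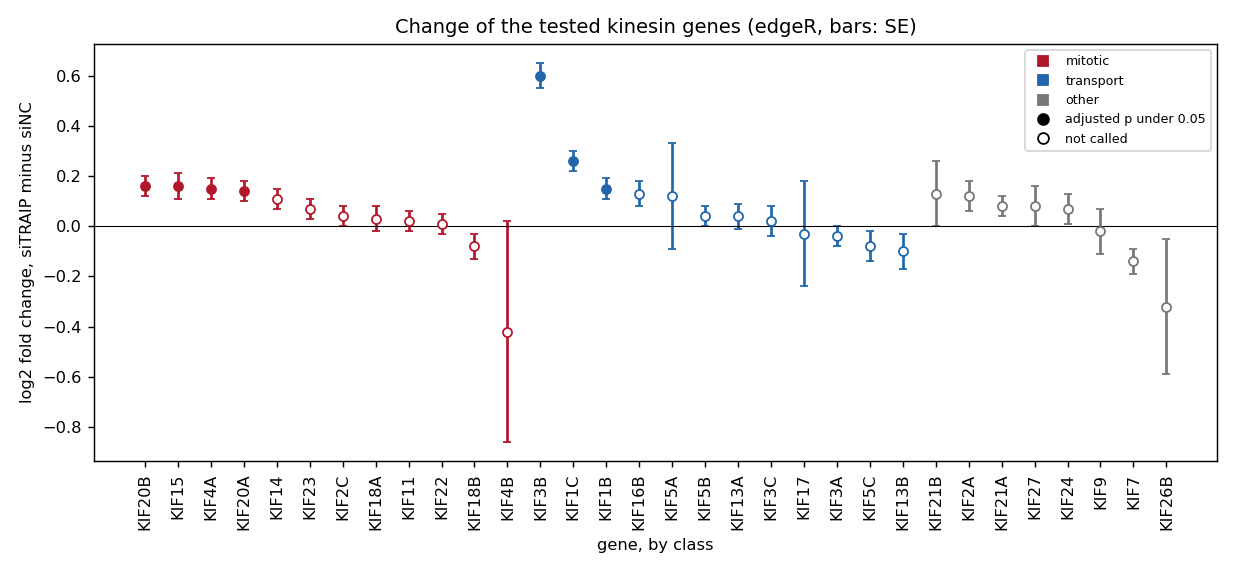
Log2 fold change, siTRAIP minus siNC, of the 32 kinesin genes tested, by class and ordered by size, from the edgeR fit. Bars are the standard error and filled points had an adjusted p under 0.05. KIF3B at 0.60 stands above all others, while the 4 called mitotic genes lie between 0.14 and 0.16.

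Among the 12 mitotic kinesins 4 rose and 8 were not called, or 33.3% called beside 12.8% of all genes tested. At a mean of at least 1 CPM the shares were 36.4% and 16.3%. The mitotic median log2 fold change was 0.06 and 10 of the 12 were positive. Over all genes tested the median was 0 and 9261 of 18685 were positive. Library values of siTRAIP lay wholly above siNC for 4 mitotic genes and wholly below for 1, KIF18B. Over all genes tested these shares were 14.8% for siTRAIP higher and 14.4% for siTRAIP lower. Bulk RNA cannot tell apart a change in the number of cells in or near mitosis and a change in the RNA per cell.

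Called and uncalled mitotic genes both carry known cell cycle letters upstream of their starts. The cell cycle homology region (CHR, letters TTTGAA or TTCGAA) and the CCAAT box are promoter elements of genes that are switched on before mitosis. RefSeq promoter windows of GRCh38.p14, from 250 bases before to 50 bases after each annotated start, matched 30 of the 35 kinesins. The following lines give the last 100 bases before the start, read 5′ to 3′ along the gene, for 3 called genes (KIF4A, KIF15 and KIF20A) and 3 uncalled ones (KIF11, KIF23 and KIF18A), to show both elements on both sides of the call. Capitals mark the CHR letters and the CCAAT box on either strand, so that ATTGG is a box and TTCAAA a CHR on the opposite strand.
KIF4A (chrX:70290004-70290103, plus strand): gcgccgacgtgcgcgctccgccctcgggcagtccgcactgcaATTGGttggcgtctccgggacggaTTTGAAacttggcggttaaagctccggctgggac
KIF15 (chr3:44761694-44761793, plus strand): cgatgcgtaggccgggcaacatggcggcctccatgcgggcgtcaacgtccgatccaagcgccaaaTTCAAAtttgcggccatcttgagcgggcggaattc
KIF20A (chr5:138179012-138179111, plus strand): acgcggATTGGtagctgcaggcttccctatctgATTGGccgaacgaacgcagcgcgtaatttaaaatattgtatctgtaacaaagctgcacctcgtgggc
KIF11 (chr10:92593030-92593129, plus strand): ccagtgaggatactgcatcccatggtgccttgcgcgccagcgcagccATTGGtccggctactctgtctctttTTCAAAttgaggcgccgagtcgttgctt
KIF23 (chr15:69414249-69414348, plus strand): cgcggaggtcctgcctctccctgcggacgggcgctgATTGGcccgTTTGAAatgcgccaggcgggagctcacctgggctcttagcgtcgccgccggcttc
KIF18A (chr11:28108157-28108256, minus strand): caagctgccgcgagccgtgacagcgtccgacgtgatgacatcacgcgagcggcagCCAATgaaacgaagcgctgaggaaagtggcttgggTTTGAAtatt

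KIF4A, KIF11, KIF23 and KIF18A each hold a box followed by CHR letters. RefSeq starts can lie before or after the start in the deposited table, as for KIF11 and KIF20A. KIF15 holds only the CHR letters in its window and KIF20A only boxes. Over the whole windows, searched on both strands, CHR letters were present in 10 of 12 mitotic kinesins (83.3%), 1 of 11 matched transport kinesins (KIF5B, 9.09%) and 1 of 7 matched others (KIF24, 14.3%), against 19.5% of 27305 genes. The CCAAT box was present in 83.3%, 36.4% and 42.9% of the same classes and 39.7% of all genes. Both were present in 9 mitotic kinesins (75.0%), and in 9.02% of all genes. TTCGAA reads the same on both strands and is counted once, and a match is a description of letters, not of a bound site. Of the mitotic genes only KIF2C held neither, and all of KIF11, KIF14, KIF18A, KIF18B, KIF22 and KIF23, which were not called, held both.

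**Figure D3:**
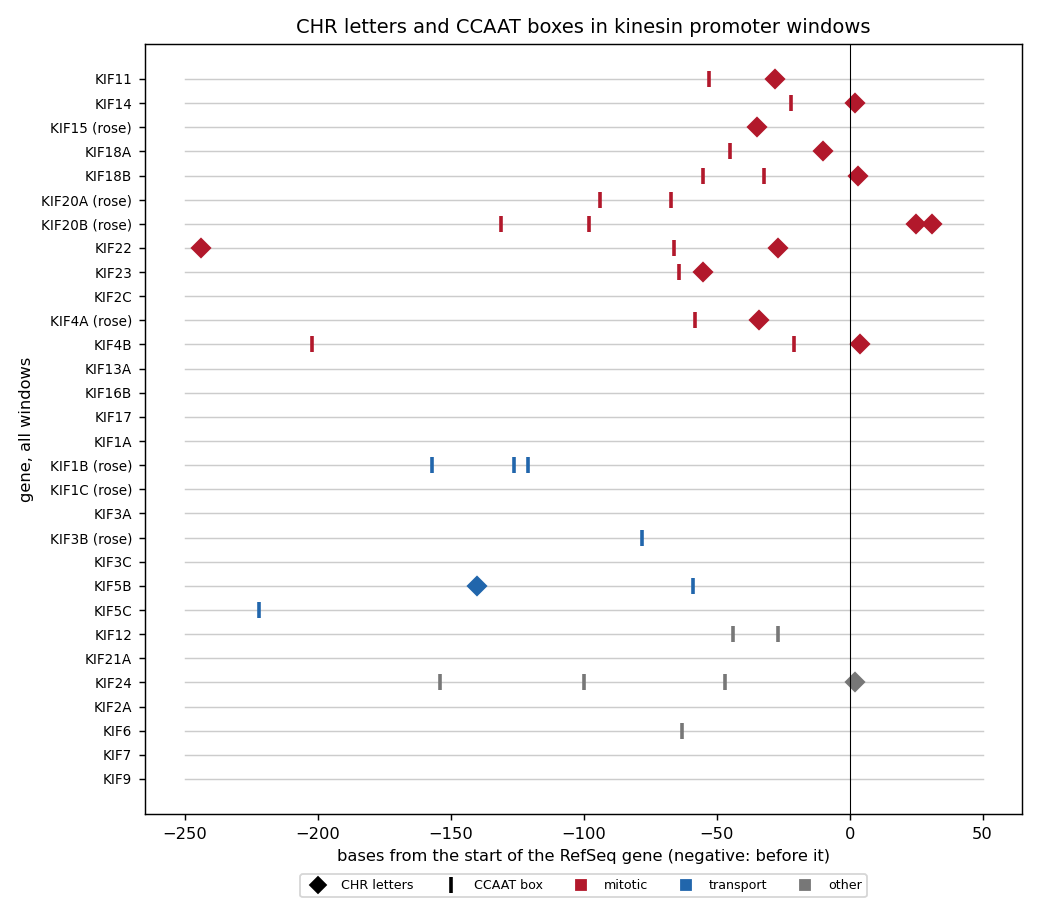
Positions of CHR letters (diamonds) and CCAAT boxes (bars) in the RefSeq promoter windows of 30 kinesin genes, in bases from the annotated start, with all windows of a gene on 1 line. Mitotic genes (10 of 12) carry CHR letters, mostly close to the start, and 1 of 11 transport genes does. Genes called as risen are marked.

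KIF20B (chromosome 10, 89701610 to 89774939, plus strand, GRCh38 as in the deposited table), needed for the late steps of cytokinesis, had the smallest adjusted p of the mitotic kinesins. It stood at 636, 646 and 626 CPM in siNC and at 730, 688 and 708 CPM in siTRAIP. Every siTRAIP library was above every siNC library. The log2 fold change was 0.16 (edgeR, SE 0.04, adjusted p = 0.0120). KIF20A (chromosome 5, 138178719 to 138187715, plus strand), which carries the chromosomal passenger complex to the midzone, stood at 166.0, 166.2 and 164.2 CPM in siNC and at 185, 176 and 188 CPM in siTRAIP. The siNC libraries were almost level and all siTRAIP libraries were higher, by 0.14 on the log2 scale (edgeR, SE 0.04, adjusted p = 0.0223). Exons of BRD8 and CDC23 on the opposite strand share 5.05% of its exonic bases, and the strand setting used in counting is not given in the sources used here. The log2 RPKM ratio of KIF20B to KIF20A was 1.15 ± 0.01 in siNC and 1.16 ± 0.03 in siTRAIP (SD, n = 3 each), a difference of 0.01 (exact permutation test, two-sided p = 0.6). With 3 against 3 libraries this test cannot go below 0.1, so it does not show that the genes moved alike.

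KIF4A (chromosome X, 70290090 to 70420832, plus strand), a chromosome arm and midzone motor that works with PRC1, stood at 203, 213 and 202 CPM in siNC and at 238, 229 and 220 CPM in siTRAIP. The groups did not overlap, although the highest siNC library came within a few CPM of the lowest siTRAIP library. The change was 0.15 on the log2 scale (edgeR, SE 0.04, adjusted p = 0.0206). The coding sequences of KIF4A (3699 bases) and its retrogene KIF4B (3705 bases) are 95.8% identical, so reads may be split between the 2 and both values are uncertain. KIF4B was listed at 0.176 to 0.469 CPM, with groups that overlapped. KIF15 (chromosome 3, 44761717 to 44873376, plus strand), which supports KIF11 in keeping the spindle bipolar, stood at 164.9, 173.5 and 155.9 CPM in siNC and at 194.8, 173.9 and 183.1 CPM in siTRAIP. The lowest siTRAIP library and the highest siNC library were nearly equal. KIF15 changed by 0.16 on the log2 scale (edgeR, SE 0.05, adjusted p = 0.0314).

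These 4 calls were not robust to the choice of libraries. When each of the 6 libraries was left out in turn, KIF20B and KIF15 were called in 3 of 6 fits and KIF20A and KIF4A in 2 of 6. Calls over all genes also changed in these fits. They numbered 2393 with all 6 libraries, 2622 without siTRAIP replicate 3, and 1480 to 1926 without any other 1 library. Without siNC replicate 1, without siNC replicate 3 and without siTRAIP replicate 1 none of the 4 passed, at edgeR adjusted p from 0.0604 (KIF20B without siTRAIP replicate 1) to 0.192 (KIF15 without siNC replicate 3). KIF20A was also lost without siNC replicate 2 (edgeR adjusted p = 0.0878) and KIF4A without siTRAIP replicate 2 (edgeR adjusted p = 0.0642). Their log2 fold changes stayed between 0.12 and 0.20 in these fits, and between 0.08 and 0.10 with library totals alone.

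The other mitotic kinesins were not called. KIF11 (chromosome 10, 92593286 to 92655395, plus strand), the most abundant of them, stood at 686, 671 and 687 CPM in siNC and at 682, 674 and 724 CPM in siTRAIP. The 2 lower siTRAIP libraries lay within the siNC range and siTRAIP replicate 3 above it. Its log2 fold change was 0.02 (edgeR, SE 0.04, adjusted p = 0.784), -0.01 without siTRAIP replicate 3 and -0.04 with library totals alone. KIF23 (chromosome 15, 69414246 to 69448427, plus strand), the motor of the centralspindlin complex, stood at 193, 206 and 208 CPM in siNC and at 212, 207 and 219 CPM in siTRAIP. Its groups overlapped, with a log2 fold change of 0.07 (edgeR, SE 0.04, adjusted p = 0.329). RACGAP1, its partner in the same complex, rose by 0.16 (edgeR adjusted p = 0.0116). When siNC replicate 1 or siTRAIP replicate 1 was left out its value was 0.15 and not called (edgeR adjusted p = 0.0852 and 0.0553). RACGAP1 lost its call in 6 of 18 alternatives, among them library totals alone (0.10, edgeR adjusted p = 0.101). The difference between the partners was not tested.

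KIF18A (chromosome 11, 28020620 to 28108308, minus strand), which dampens chromosome movements at the metaphase plate, stood at 58.68, 56.32 and 55.55 CPM in siNC and at 58.33, 56.38 and 59.04 CPM in siTRAIP. The groups overlapped, with a log2 fold change of 0.03 (edgeR, SE 0.05, adjusted p = 0.784). KIF2C (chromosome 1, 44739818 to 44767767, plus strand), a microtubule depolymerase at centromeres, stood at 166, 171.0 and 172 CPM in siNC and at 178, 173 and 171.4 CPM in siTRAIP. Only siTRAIP replicate 1 was clearly outside the siNC range, and the log2 fold change was 0.04 (edgeR, SE 0.04, adjusted p = 0.631). With library totals alone, where the median over all genes was -0.06, the sign turned for both, to -0.03 for KIF18A and -0.02 for KIF2C. Of the rest, KIF14 had a log2 fold change of 0.11 (edgeR adjusted p = 0.133), KIF22 of 0.01 and KIF18B of -0.08.

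**Figure D4:**
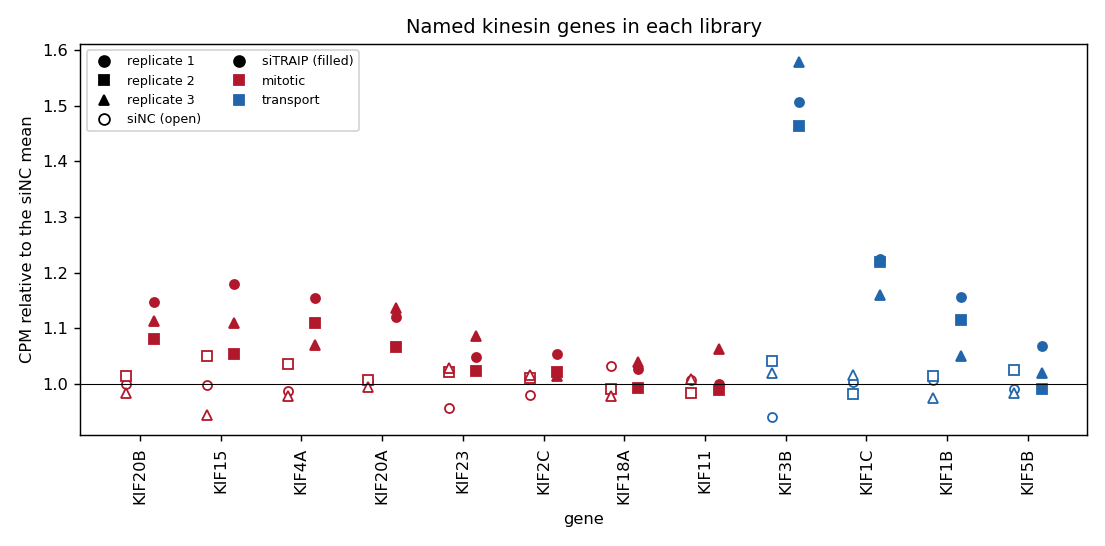
CPM of 12 kinesin genes in each library, divided by the gene's siNC mean, with siNC open and siTRAIP filled; marker shape gives the replicate number and the line marks 1. KIF3B (134 to 144 CPM in siTRAIP) lies farthest from its siNC libraries and KIF1C (501 to 529 CPM) next, with the called mitotic genes closer to the line. KIF11, KIF2C, KIF18A and KIF5B overlap with their siNC libraries.

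Among the 12 transport kinesins tested 3 rose and none fell, with a median log2 fold change of 0.04. This is 25.0% called beside 12.8% of all genes. All 12 had a mean of at least 1 CPM, where 16.3% of all genes were called. Library values lay wholly above siNC for 3 and wholly below for none, beside 14.8% and 14.4% of all genes. The largest change of any kinesin was in KIF3B, a motor subunit of heterotrimeric kinesin-2, which moves cargo inside cilia and vesicles in the cytoplasm. Its upstream stretch is shown with that of KIF1C, the other transport gene with a clear rise, for comparison with the mitotic stretches above. Capitals mark the CCAAT box as before.
KIF3B (chr20:32277551-32277650, plus strand): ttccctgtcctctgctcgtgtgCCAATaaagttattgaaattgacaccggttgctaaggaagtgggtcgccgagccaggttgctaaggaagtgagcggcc
KIF1C (chr17:4997850-4997949, plus strand): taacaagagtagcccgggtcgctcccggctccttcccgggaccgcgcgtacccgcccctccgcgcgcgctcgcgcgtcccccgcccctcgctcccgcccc

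KIF3B holds 1 box and no CHR letters there, and KIF1C neither. KIF3B (chromosome 20, 32277664 to 32335011, plus strand) stood at 86.0, 95.2 and 93.2 CPM in siNC and at 138, 134 and 144 CPM in siTRAIP. The lowest siTRAIP library was far above the highest siNC library. The fold was 1.52, a log2 fold change of 0.60 (edgeR, SE 0.05, adjusted p = 4.07e-09). It was called in all 18 alternatives, at 0.51 to 0.63 with adjusted p no higher than 0.00263, and no annotated exon of another gene overlaps its exons.

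Other subunits of heterotrimeric kinesin-2 did not show such a change. KIF3A, the motor subunit that pairs with KIF3B, stood at 99.2, 104 and 102 CPM in siNC and at 99.9, 98.0 and 98.5 CPM in siTRAIP (log2 fold change -0.04, SE 0.04, edgeR adjusted p = 0.605). For KIF3C, the alternative partner of KIF3A, it was 0.02 (SE 0.06), and for KIFAP3, the cargo-binding accessory subunit, 0.04 (edgeR, SE 0.07, adjusted p = 0.760). The RPKM ratio of KIF3B to KIF3A was 0.974, 1.03 and 1.03 in the siNC and 1.55, 1.53 and 1.65 in the siTRAIP libraries, so the 2 transcripts were near parity in siNC only. The log2 ratio differed by 0.64 between groups for KIF3A, by 0.58 for KIF3C and by 0.56 for KIFAP3. Each of the 3 gave p = 0.1 in a two-sided exact permutation test, the smallest that 3 against 3 libraries can give, so this test could not pass 0.05. The ratios use the same KIF3B values as the fold above and are not separate evidence of its rise. The log2 ratio of KIF1C to KIF1B differed by 0.12 (exact permutation p = 0.1). Adjusted over the 5 ratios computed, with that of KIF20B to KIF20A, the exact permutation p is 0.125 for these 4 and 0.6 for the fifth.

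KIF1C (chromosome 17, 4997948 to 5028401, plus strand), a carrier of vesicles and mRNA to cell protrusions, stood at 434, 425 and 439 CPM in siNC and at 529, 527 and 501 CPM in siTRAIP. The groups were well separated. KIF1C changed by 0.26 on the log2 scale (edgeR, SE 0.04, adjusted p = 8.58e-05), it was called with each library left out in turn, and it was lost only in the test against a fold of 1.2. KIF1B (chromosome 1, 10210805 to 10381603, plus strand), which carries mitochondria and synaptic vesicle precursors, stood at 118.8, 119.8 and 115.0 CPM in siNC and at 136.5, 131.6 and 123.9 CPM in siTRAIP. The groups did not overlap, with a log2 fold change of 0.15 (edgeR, SE 0.04, adjusted p = 0.0291). With 1 library left out KIF1B was called in 1 of 6 fits, the one without siTRAIP replicate 3; without siTRAIP replicate 1, the most adverse, its adjusted p was 0.156, and the other 4 fits gave 0.0801 to 0.129.

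KIF5B (chromosome 10, 32009010 to 32056431, minus strand) stood at 928.5, 959.6 and 921.4 CPM in siNC and at 1001, 927.1 and 955.6 CPM in siTRAIP. Its groups overlapped, with a log2 fold change of 0.04 (edgeR, SE 0.04, adjusted p = 0.650), and of -0.02 with library totals alone. KIF16B, an early endosome motor, was high in siTRAIP replicates 1 and 2 (96.3 and 92.4 CPM) and inside the siNC range of 79.5 to 84.7 CPM in replicate 3 (82.0 CPM). Its log2 fold change of 0.13 was not called (edgeR adjusted p = 0.112) but was when siTRAIP replicate 3 was left out. Of the remaining transport kinesins tested, KIF5A, KIF5C, KIF13A, KIF13B and KIF17 had log2 fold changes from -0.10 to 0.12 and overlapping groups. The SE was 0.21 for KIF5A and for KIF17, so small changes in them could be missed.

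**Figure D5:**
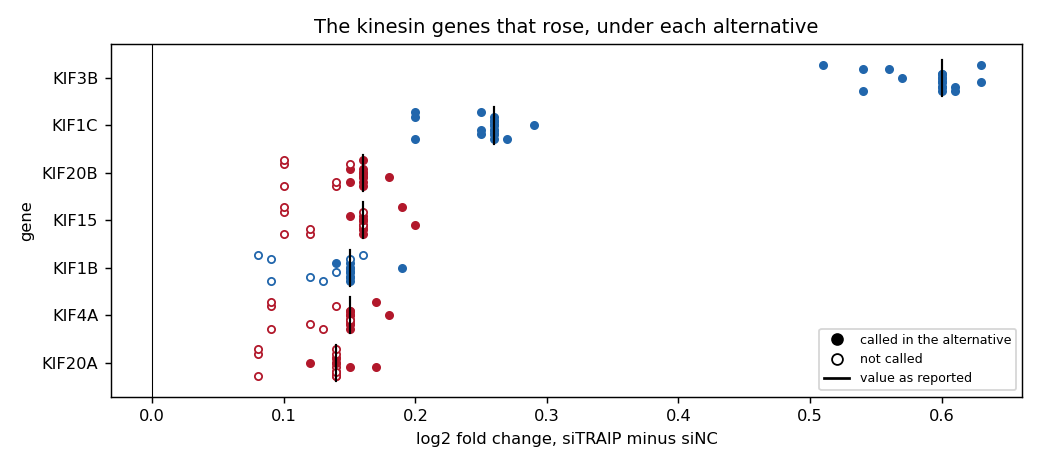
Log2 fold change of the 7 kinesins that rose, under each of 18 alternative analyses (points; filled where called) with the reported value as a vertical bar. KIF3B was called in all 18 and KIF1C in 17, whereas the 4 mitotic genes and KIF1B include many open points.

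The kinesins with other roles include motors of cilia, the cytoskeleton and signalling. Of the 8 tested (KIF2A, KIF7, KIF9, KIF21A, KIF21B, KIF24, KIF26B and KIF27) 0 were called by edgeR or by DESeq2, and 2 had an unadjusted p under 0.05 (KIF2A and KIF7). The median log2 fold change was 0.07 and the range ran from -0.32 to 0.13. KIF7, a regulator of Hedgehog signalling at the cilium tip, was lower in every siTRAIP library, at 57.6, 56.5 and 57.5 CPM in siNC and 54.5, 53.0 and 48.5 CPM in siTRAIP. Its log2 fold change was -0.14 (edgeR, SE 0.05, adjusted p = 0.0663), it passed when siTRAIP replicate 1 was left out, and TICRR shares 11.8% of its exonic bases on the opposite strand. KIF2A, a depolymerase of spindle poles and interphase microtubules, overlapped between groups, with a log2 fold change of 0.12 (edgeR, SE 0.06, adjusted p = 0.177). The motile cilia markers DNAI1 and RSPH1 were each under 1 CPM in all libraries. With library totals alone the median was -0.005 for the mitotic, -0.023 for the transport and 0.013 for the other kinesins, beside -0.06 over all genes. The differences between classes were not tested.

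Kinesins whose symbols fall outside the rule did not pass: of KIFC1, KIFC2, KIFC3, CENPE and STARD9, 0 of 5 were called by edgeR, with 1 unadjusted p under 0.05 (KIFC3, log2 fold change -0.11) and 0 called by DESeq2. CENPE, the large kinetochore kinesin, averaged 461 ± 16.4 CPM over the siNC and 478 ± 23.3 CPM over the siTRAIP libraries (SD, n = 3 each). On the spindle side, 6 of 15 partner genes rose, 1 fell and 8 were not called, with a median of 0.12. This is 46.7% called, where 12.8% of all genes tested and 16.3% of those with a mean of at least 1 CPM were called. DESeq2 called 8 rises and 1 fall in this list. BIRC5, of the chromosomal passenger complex, rose from 115 ± 2.21 to 138 ± 4.56 CPM (SD, n = 3 each; log2 fold change 0.26, edgeR adjusted p = 0.000125). The microtubule bundlers NUSAP1 and PRC1 rose by 0.20 and 0.19, with 62.2% and 57.6% of their exonic bases also annotated to another gene on the same strand, which makes both values uncertain. PLK1, the kinase that recruits midzone proteins, went the other way, from 149 ± 3.98 to 127 ± 4.23 CPM (SD, n = 3 each; log2 fold change -0.23, edgeR adjusted p = 0.000541), and opposite-strand genes overlap 12.5% of its exonic bases. RACGAP1, described above with KIF23, and TPX2 and HMMR, both with a log2 fold change of 0.14, were the other called genes of this list. The passenger subunits AURKB and CDCA8 were not called. INCENP, the scaffold of the passenger complex, stood at 481, 492 and 468 CPM in siNC and at 679, 630 and 513 CPM in siTRAIP. All siTRAIP libraries were higher but far apart from one another, and it was not called (log2 fold change 0.34, SE 0.10, edgeR adjusted p = 0.101).

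On the cargo side, 3 of 14 partner genes rose, 2 fell and 9 were not called, with a median of -0.03, or 35.7% called beside the same 12.8% and 16.3%. SPAG9, a JNK scaffold that links kinesin-1 to cargo, rose from 277 ± 8.84 to 328 ± 12.0 CPM (SD, n = 3 each; log2 fold change 0.24, edgeR adjusted p = 0.000367). TRAK1, a mitochondrial adaptor of KIF5 motors, rose by 0.25 (edgeR adjusted p = 0.00174). MAPK8IP2 rose by 0.89 from a level of 1.34 to 1.97 CPM in siNC (edgeR adjusted p = 0.000338). The kinesin light chain gene KLC2 had a log2 fold change of -0.19 (edgeR adjusted p = 0.00765) and RHOT2, a mitochondrial anchor for TRAK proteins, of -0.17 (edgeR adjusted p = 0.0158). KLC2 was lost without siNC replicate 1 (edgeR adjusted p = 0.0695), and RHOT2 without siNC replicate 1, siTRAIP replicate 1 or siTRAIP replicate 2 (0.0966, 0.0565 and 0.0762). Of 12 tubulin genes, which encode the track, TUBA1C rose by 0.24 (edgeR adjusted p = 0.000997) and TUBB6 fell from 738 ± 2.66 to 546 ± 14.9 CPM (SD, n = 3 each; log2 fold change -0.44, edgeR adjusted p = 5.97e-08). The other 10 were not called, which leaves 16.7% called, near the share over all genes, and opposite-strand exons share 25.0% and 20.3% of the exonic bases of these 2.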

How the data were processed

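The 6 libraries (3 siNC, 3 siTRAIP) were grouped by the sample titles. Per the labels' protocols, TRIzol was used for the RNA and a strand-keeping mRNA kit for the libraries. The authors deposited whole-number read counts per gene, not normalized, and RPKM values, which equal count over gene length and library total within a relative difference of 1.3e-06. Genome build GRCh38, Subread 1.5.1, featureCounts and Trimmomatic 0.36 are named in the submitters' processing notes; aligner, annotation release and counting options were not given in the sources used here. Low counts were mostly even (70.2%, against 50.8% of high counts), so both reads of a pair may have been counted.

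Counts were tested with edgeR 4.0.16 in R 4.3.3: filterByExpr, TMM, quasi-likelihood fit with robust=TRUE, 2-sided F-test, and Benjamini-Hochberg adjustment over 18685 genes at 0.05. The common biological coefficient of variation was 5.73%. The code was tested on simulated counts. Exon overlaps and coding sequences came from GENCODE (GRCh38), and promoters from RefSeq (GRCh38.p14), which did not match KIF13B, KIF5A, KIF27, KIF21B and KIF26B.

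Members, classes, partner lists and markers were chosen with earlier results of these data known. A further leukocyte marker is not reported here. Library values are given for KIF11, KIF20A, KIF23, KIF18A, KIF4A and KIF2C, every called kinesin and the 5 kinesins of highest mean RPKM; of each partner list, up to 5 called genes by smallest p. KIF3A, KIF3C, KIFAP3, KIF7, KIF16B, CENPE, INCENP, TPX2, HMMR and the 5 ratios were described after values were seen. Alternatives were DESeq2 1.42.0, other size factors and filters, halved counts, robust=FALSE, a test against a fold of 1.2, limma 3.58.1 on log2(RPKM + 0.1) and log2(RPKM + 1), leaving out each library, a block for the replicate number and other class membership.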

Additional observations from a re-analysis of the deposited data

How the results depend on the processing

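Of the 7 kinesin calls, 5 were lost when libraries were scaled by totals alone and in some fits with 1 library left out. The same 7 were called with RLE factors, with upper-quartile factors and with DESeq2. The count of kinesins that rose, 7 as reported, was 1 in the test against a fold of 1.2 and 2 with no TMM factors and with limma on either RPKM scale, and ran from 2 to 8 with 1 library left out, the 8 adding KIF16B without siTRAIP replicate 3. The count that fell, 0 as reported, was 1 (KIF7) with no TMM factors, with halved counts and with a filter at 1 CPM in 3 libraries, and ran from 0 to 1 with 1 library left out. Over all genes the median was 0 as reported, -0.06 with no TMM factors, -0.06 on log2(RPKM + 0.1) and -0.03 on log2(RPKM + 1). The mitotic median, 0.055, was -0.005 with no TMM factors and on both RPKM scales. The transport median, 0.037, was -0.023 with no TMM factors, -0.024 on log2(RPKM + 0.1) and -0.019 on log2(RPKM + 1), and 0.024 to 0.076 with 1 library left out. The median of the other kinesins, 0.073, was 0.013, 0.010 and 0.007 in the same order, and 0.029 to 0.086 with 1 library left out. With no TMM factors and on both RPKM scales KIF11 turned to -0.04, KIF18A to -0.03, KIF2C to -0.02 and KIF5B to -0.02. In these settings the median over all genes was lower too, as given above. KIF11 ran from -0.01 (without siTRAIP replicate 3) to 0.04 with 1 library left out. The cause was not tested. Of 216 alternative values of the 12 named kinesins, 160 kept direction and call, 43 lost the call, 0 gained one and 13 reversed. Of all genes, 2393 were called as reported, 217 against a fold of 1.2 and 1520 and 1519 on the RPKM scales. With 1 library left out 1480 to 2622 were called, the highest without siTRAIP replicate 3. TRAIP was called in all 18 alternatives, at -1.21 to -0.99. With the replicate block 5 kinesins rose, KIF15 (edgeR adjusted p = 0.0529) and KIF20A (0.0503) being lost and no other kinesin call changed. The deviations of same-numbered libraries from their group means correlated at -0.0076, -0.018 and 0.0014 over all genes tested. Whether equal replicate numbers share a day is not stated in the labels, and these values do not settle it. Depth limits KIF1A, KIF4B, KIF6, KIF12 and KIF26B, all under 1 CPM, where changes of the size reported here were not detectable. KIF5A and KIF17 had an SE of 0.21 and KIF21B of 0.13, against 0.04 or 0.05 for the called kinesins. Small changes could be missed there too.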

Other observations

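An earlier analysis of these fold changes picked out 7-base words in transcripts, TCGGAGA and CGGAGAA for rises and ACAGTCT and CAGTCTA for falls. They were chosen on values that include the kinesins, so the shares below are descriptions. The search covered 1 GENCODE transcript per gene, from the start codon to the end, so 5′ UTRs were not searched. A rise word was present in 17.1% of 19559 protein-coding genes and 32.9% of the called rises. A fall word was present in 23.7% of all genes, 44.6% of the called falls and 24.8% of the called rises. Of the 7 kinesins that rose 1, KIF1C, holds a rise word, with both words overlapping in its coding sequence. With 7 genes this cannot be told from the 17.1% over all genes. The uncalled KIF9, KIF13A, KIF16B and KIF18A hold rise words as well. KIF3B, the largest rise, holds none in the part searched. KIF3B holds a fall word in its coding sequence, as does KIF15, and KIF1C holds one in its 3′ UTR. Uncalled kinesins such as KIF22 and KIF24 hold fall words too. The sites in KIF1C and KIF3B, with the bases around them and the word in capitals, follow with their GRCh38 positions. The first rise word of KIF1C begins 1 base before the one shown.
KIF1C rise word (chr17:5002835-5002841, plus strand): gctggactCGGAGAAggtcagta
KIF1C fall word, 3′ UTR (chr17:5024964-5024970, plus strand): ctggaggtACAGTCTtggctcac
KIF3B fall word (chr20:32331292-32331298, plus strand): ctttatccACAGTCTcgggggct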
